A study of Mus musculus with 2 samples.

Results

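The macrophages of the fetal mouse eye were described here from single-cell RNA-seq of 2 pooled eye cup libraries collected from embryos at E17.5, shortly before birth. A barcode was taken as a macrophage when at least 3 of the 6 genes *C1qa*, *C1qb*, *C1qc*, *Csf1r*, *Pf4* and *Mrc1* had a transcript and these genes together made up at least 0.1% of its unique molecular identifiers (UMIs, counted transcripts). By this rule, 285 of the 36146 barcodes kept after filtering were macrophages, 178 of 17017 from *Myrf humWT/humWT* embryos and 107 of 19129 from *Myrf humdG/humdG* embryos.

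Macrophages enter the fetal eye from the embryonic blood supply and settle in the neural retina, the choroid and the hyaloid vessels that feed the lens and vitreous before birth. In the retina they become microglia, the resident phagocytes of nervous tissue. Along vessels and at tissue borders they become border or perivascular macrophages, which carry scavenger receptors such as LYVE1, MRC1, CD163 and STAB1. Both kinds depend on the colony-stimulating factor receptor CSF1R, both make the 3 chains of the complement starter C1q, and in the mouse the macrophages of the hyaloid vessels send signals, WNT7B among them, that lead these vessels to regress.

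MYRF is a membrane-bound transcription factor, and the study asked how a variant that changes its C-terminal end acts on the eye. Both genotypes were homozygous for a humanized allele on a C57BL/6J background, in which the human last exon replaced the mouse one, so the controls carried this exchange too. In *Myrf humWT/humWT* the human exon was the reference form. In *Myrf humdG/humdG* it was a form with a shifted reading frame, made to mimic the C terminus that a patient variant leads to. Each genotype was 1 library, labelled as a pool of 3 eye cups dissociated with papain and run on the 10x Genomics 3′ platform. The sources differ on the number of eyes pooled and on whether the cornea was left on, and the extraction text also speaks of *Myrf fl/fl* and Rx>cre mice, so the tissue that entered the pools is known only in part.

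With 1 library per genotype, no test, p-value or standard error between genotypes can be given, and genotype, embryos, litter, dissociation and library cannot be told apart. Intervals are exact 95% intervals (Clopper-Pearson for shares, Poisson for levels, conditional binomial for ratios), and they cover counting error only. Levels are counts per 1000000 UMIs (CPM) summed over all macrophages of a library. The 3′ chemistry counts 1 end of each transcript, so levels were not divided by gene length. The libraries held 17421 and 19565 deposited barcodes with 129135207 and 114319529 UMIs, first for *Myrf humWT/humWT*, then for *Myrf humdG/humdG*, and the same order is used below wherever a pair of values is given. The macrophages held 2755032 and 1259242 UMIs, or 2.16% and 1.12% of those in kept barcodes. A macrophage had a median of 10242.5 and 7183 UMIs, from 1504 to 136049 and from 1337 to 44054, and a median of 3518.5 and 2340 detected genes. Of the deposited barcodes, 102 occurred in both libraries, and 0 of these were macrophages in both.

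The 6 genes used by the rule were far above their level in other barcodes, and because they chose the barcodes their levels are a description. *Pf4*, a platelet chemokine that tissue macrophages of the mouse also make, stood at 8760.3 and 7639 CPM, the highest of the 6. Among single macrophages it ran from 0 through a median of 5356 to 31150 CPM in the *Myrf humWT/humWT* library and from 0 through 1896 to 31080 CPM in the *Myrf humdG/humdG* library. The C1q chains lay close to each other. *C1qa* stood at 2529 and 3107 CPM, *C1qb* at 2498 and 2902 CPM, and *C1qc* at 2079 and 2339 CPM. *Mrc1*, a mannose receptor, reached 1977 and 1706 CPM, and *Csf1r*, the survival receptor of the lineage, 697 and 797 CPM. In all other kept barcodes each of the 6 genes was below 10 CPM, and *Pf4* at 9.66 and 5.15 CPM was the highest there.

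Genes that the rule did not use marked the same barcodes. *Fcer1g*, the signalling chain of Fc receptors, was at 2249 and 2514 CPM, 153-fold and 246-fold above the other barcodes. *Tyrobp*, the adaptor of TREM2, was 126-fold and 161-fold above them, and the protease gene *Ctss* 171-fold and 292-fold. *Ptprc*, which encodes the leukocyte antigen CD45, was at 172 and 214 CPM, 65.9-fold and 109-fold above. *Spi1*, the gene of the macrophage-determining factor PU.1, was at 276 and 316 CPM beside 2.06 and 1.80 CPM elsewhere. Since macrophages were picked by co-expressed genes, these folds describe the gate and were not tested. When each barcode was thinned to 1000 UMIs, *Fcer1g* was detected in 68.5% and 65.4% of macrophages, beside 0.875% and 0.836% of red blood cells, which should lack it. These red blood cells had median depths of 4616 and 3819 UMIs. In *Myrf humdG/humdG*, 106 of the 107 macrophages lay outside the red blood cell gate, and the remaining barcode was counted in both sets.

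**Figure D1:**
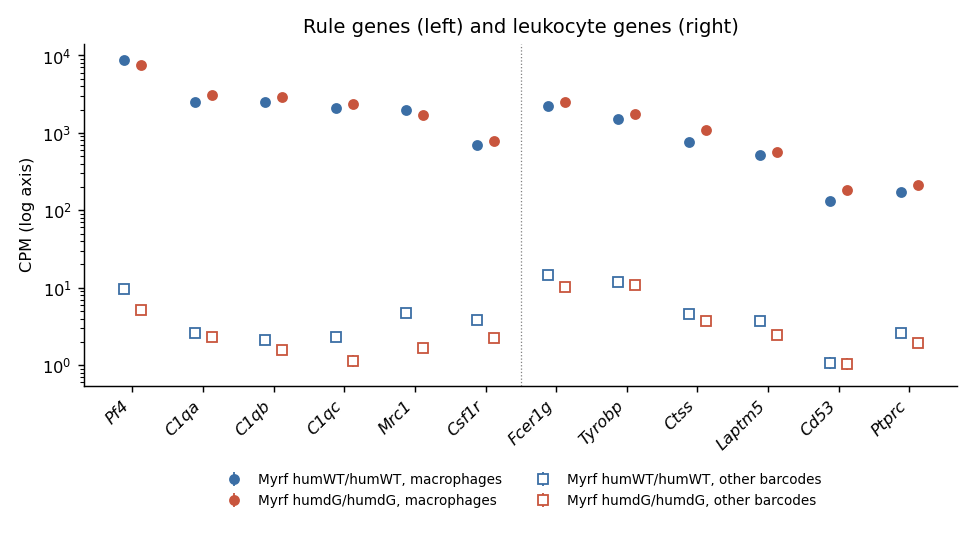
Summed level (CPM, log axis) of the 6 rule genes, left of the dotted line, and of 6 leukocyte genes that the rule did not use, right of it. Filled points are the macrophages and open squares all other kept barcodes, blue for *Myrf humWT/humWT* and red for *Myrf humdG/humdG*, with exact Poisson intervals that are mostly smaller than the symbols; each filled point lies above both open squares of its gene, for *Fcer1g* at 2249 and 2514 beside 14.7 and 10.2 CPM.

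Over all 11395 genes with at least 20 UMIs in macrophages, 531 genes, or 4.66%, stood at least 8-fold above the other barcodes in both libraries. Of the 22 pan-leukocyte and pan-macrophage genes, 21 did so. Of 20 genes for Toll-like receptors and innate sensing it was 16, of 16 chemokine and cytokine genes 12, of 18 border macrophage genes 14, of 15 microglia genes 9, and of 6 Fc receptor genes 5. None of 26 proliferation genes and none of 11 glycolysis genes did. Beyond the C1q genes and *Pf4*, the 20 genes most restricted to the macrophages included the eotaxin gene *Ccl24* at 128 and 155 CPM, the Fc receptor-like scavenger receptor gene *Fcrls* at 634 and 743 CPM, the complement receptor gene *C3ar1* at 175 and 172 CPM, and *Adgre1*, which encodes F4/80, at 298 and 302 CPM. *Cryba4*, named as a lens crystallin gene, was among them at 110.0 and 145 CPM. *Apoe*, the gene of the lipid carrier apolipoprotein E, was the most abundant of the genes described here, at 12654 and 14677 CPM. The other barcodes held 325 and 323 CPM of *Apoe*.

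The promoters of the 6 rule genes and of these 20 genes, 21 genes in all, were looked up in the RefSeq table for GRCm38.p6, and 15 had at least 1 promoter window of 250 bases before to 50 bases after the start. The core of the sequence that PU.1 binds, GAGGAAGT read on either strand (ACTTCCTC is its reverse complement), was present in a window of 2 of the 15 genes (13.3%) and of 3.69% of all 27025 genes with a window. The 2 genes were *Pf4* and *C1qc*, the stretches upstream of which are shown 5′ to 3′ on the strand of each gene because *Pf4* and the C1q genes carry the gate. Capitals mark the match. The *Pf4* stretch is chr5:90772185-90772434 (plus strand), ending at the gene's start, with the match beginning 10 bases before it. The *C1qc* stretch is chr4:136893066-136893164 (minus strand), where the match begins 195 bases before the RefSeq start and 44 bases before the start in the GENCODE annotation.
Pf4: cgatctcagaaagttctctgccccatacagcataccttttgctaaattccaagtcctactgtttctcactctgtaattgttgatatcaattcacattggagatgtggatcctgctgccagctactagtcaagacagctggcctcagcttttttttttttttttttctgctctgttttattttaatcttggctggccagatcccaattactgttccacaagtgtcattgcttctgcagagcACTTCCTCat
C1qc: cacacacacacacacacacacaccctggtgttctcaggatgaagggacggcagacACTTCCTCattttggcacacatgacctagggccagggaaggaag
*C1qc* lies at chr4:136889804-136893065 beside *C1qb* at chr4:136880129-136886187 and *C1qa* at chr4:136895917-136898803, and *Pf4* lies at chr5:90772435-90773383 next to *Ppbp*, a further chemokine gene of platelets, at chr5:90768518-90770063. *Ppbp* was also among the 20 genes, at 84.2 and 61.9 CPM, with 80.8% of its UMIs in the *Myrf humdG/humdG* macrophages in 1 barcode, while the platelet integrin gene *Itga2b* had 9 and 0 UMIs.

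Not every barcode within the gate carried the full macrophage profile. Taking *Ptprc*, *Tyrobp*, *Fcer1g*, *Laptm5*, *Ctss* and *Cd53* as leukocyte genes outside the rule, 126 of 178 (70.8%) and 80 of 107 (74.8%) macrophages had at least 4 of the 6. Depth moved with this count. Among macrophages of 10000 to 50000 UMIs, it was 84 of 87 and 44 of 44, and among those under 5000 UMIs, 21 of 65 and 21 of 45. Just inside the limit of the rule, with 0.1% to 0.15% of UMIs from the 6 rule genes, lay 13 and 5 barcodes at medians of 0.131% and 0.119%. Just outside it, with 3 or more rule genes detected and a smaller share, lay 29 and 11 barcodes at medians of 0.0220% and 0.0398%. At or above a share of 1% lay 108 and 57 macrophages. The part of depth in these counts was not tested.

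Several measured values moved with the library and stand beside the comparisons below. There were 4 macrophages of *Myrf humWT/humWT* with more than 50000 UMIs (90187, 112575, 112634 and 136049) and none of *Myrf humdG/humdG*. Their share of rule genes was 0.107% to 0.132%, at the edge of the gate, and each held 774 to 948 UMIs of the collagen gene *Col1a1*, 206 to 248 of the fibroblast gene *Pi16* and 230 to 282 of the elastic fibre gene *Mfap5*. These 4 barcodes made up 16.4% of the macrophage UMIs of their library. The 14 mesenchyme and collagen genes took 0.631% and 0.0432% of macrophage UMIs, with *Col1a1* the most abundant and no gene at 0 in either library. In the other barcodes it was 1.56% and 0.712%. The 4 deep barcodes held 62.9% of these mesenchymal UMIs in *Myrf humWT/humWT*, and without them *Col1a1* still stood at a log2 ratio of −2.89. In addition, 1 *Myrf humdG/humdG* barcode held 55.1% of the red blood cell UMIs and 1 held 66.4% of the endothelial UMIs found in that library's macrophages. *Xist*, transcribed from the inactive X chromosome of females, stood at 288 and 492 CPM in macrophages beside 263 and 572 CPM in other barcodes, and the Y-linked genes summed to 159 and 106 beside 157 and 129 CPM. The part of each in the differences between genotypes was measured, where possible, by leaving barcodes out, and beyond that it was not tested.

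**Figure D2:**
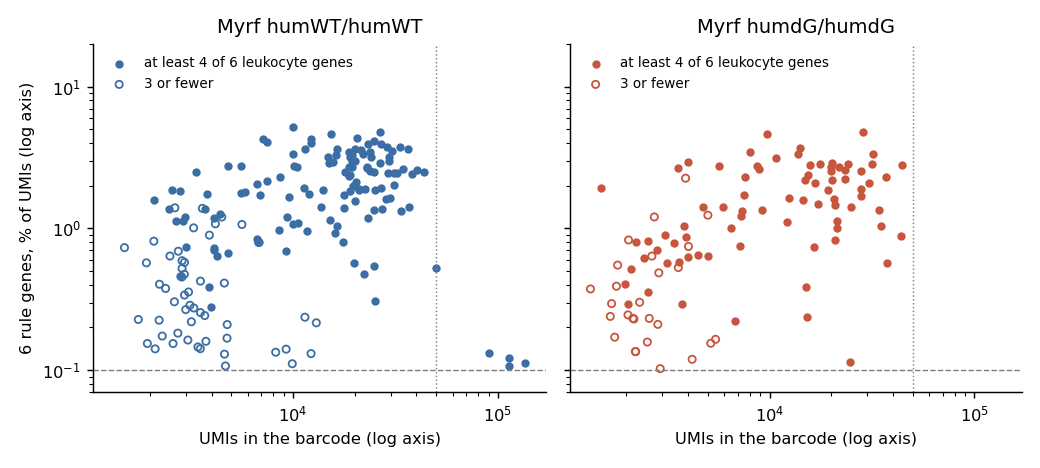
UMIs per macrophage (log axis) against the percent of its UMIs from the 6 rule genes (log axis), 1 point per barcode. Filled points had at least 4 of 6 leukocyte genes and open points 3 or fewer; the dashed line is the 0.1% limit and the dotted line 50000 UMIs, beyond which lie 4 barcodes of *Myrf humWT/humWT* close to the limit and none of *Myrf humdG/humdG*.

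Barcodes with the profile of other leukocytes were rare in the eye cups. Those with a neutrophil profile numbered 14 and 22, with a mast cell and basophil profile 30 and 5, with a lymphocyte profile 5 and 5, and with a dendritic cell profile 1 and 2, all outside the gate. At least 4 of the 6 leukocyte genes were found in 13 and 19, 9 and 2, 2 and 1, and 1 and 1 of them, in the same order of profiles. Among the macrophages, 0 passed any of these 4 profiles. The monocyte profile was passed by 24 and 10 macrophages, but also by 2959 and 1329 barcodes outside the gate, of which 29 and 29 had at least 4 of 6 leukocyte genes, so it did not single out monocytes. *Ccr2*, the chemokine receptor of monocytes, was found in 16 and 13 macrophages with 107 and 85 UMIs, or 38.8 and 67.5 CPM, while *Ly6c2* of classical monocytes had 3 and 0 UMIs and the neutrophil gene *S100a8* 1 and 6. Genes of antigen presentation to T cells were low. *H2-Aa* had 0 UMIs in the macrophages of both libraries, with upper Poisson limits of 1.34 and 2.93 CPM (a floor of 3 UMIs is 1.09 and 2.38 CPM), beside 148 and 139 UMIs in all other barcodes. *H2-Ab1* had 3 and 10 UMIs, and their chaperone gene *Cd74* was at 46.1 and 48.4 CPM.

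Within the macrophages, a microglia-like and a border-like profile lay apart. Clustering gave 6 clusters. One of them, 9 and 14 barcodes (5.06%, interval 2.34 to 9.38, and 13.1%, interval 7.34 to 20.98, of the macrophages), carried 13 of the 16 microglia genes above the rest and was called microglia-like. In it *P2ry12*, the purinergic receptor gene of resting microglia, stood at 1200 CPM beside 108 CPM in the other macrophages, *Siglech* at 357 beside 12.4 CPM and *Sall1*, a transcription factor gene of microglial identity, at 134 beside 2.64 CPM. These genes shaped the cluster, so the levels describe it. The border genes named here were lower in it. *F13a1*, the coagulation factor XIII gene of border macrophages, stood at 13.4 beside 1660 CPM and *Mrc1* at 80.3 beside 1999 CPM. *Stab1* stood at 138 beside 909 CPM, and *Lyve1*, *Cd163* and *Folr2* had 0 UMIs in it. *Pf4* stood at 89.2 beside 8901 CPM, whereas *C1qa* was present in both, at 4197 beside 2622 CPM.

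The remaining clusters could be named only in part. One held 69 and 1 barcodes and was called border macrophage-like from 7 of the border genes. These 7 included *Cd163*, *F13a1* (2538 CPM), *Stab1* and *Dab2*. Other border markers were not raised 2-fold, among them *Lyve1*, at 673 CPM beside 346 CPM in the other macrophages, and *Folr2*, at 109 beside 76.7 CPM. The leading genes of this cluster by fold were *Hmox1*, *Plac8*, *Slfn1*, *Cd163*, *Ifit1* and *Spic*, most of which are compared between genotypes below. A cluster of 0 and 29 barcodes had a similar level of *F13a1* (2149 CPM), with *Lyve1* at 795 CPM and *Folr2* at 135 CPM, and stayed unnamed. Its first gene by fold was *Ccl5*, whose 330 UMIs came from 1 barcode. *Cd83*, *Tnf* and *Cdkn1a* were also among its leading genes, *Tnf* with 13 UMIs in 13.8% of the barcodes. The border macrophage-like and the unnamed cluster were each made up almost wholly of 1 library, so each may be the library and not a type, and their sizes were not compared. A proliferating cluster held 14 and 8 barcodes (7.87% and 7.48%), led by histone genes, *Birc5* and *Ube2c*. The last pair carried markers of other tissues. By the count of raised markers, the first of them was named retinal progenitor-like. The second was named mesenchyme and collagen-like and, at an equal count, endothelium-like. These names are not used here. The first held 68 and 44 barcodes at a median of 2992.5 UMIs, led by haemoglobin genes, *Cdk8* and *Gphn*, which go against a single name. Above the rest it had 7 retinal progenitor, 6 muscle, 5 retinal neuron and photoreceptor and 4 red blood cell markers, and 23 of the 68 and 22 of the 44 barcodes had at least 4 of 6 leukocyte genes. The other, of 18 and 11 barcodes, was led by *Pi16* and *Mfap5*, with 11 mesenchyme and 11 endothelium markers above the rest, and 12 and 7 of its barcodes had at least 4 of the leukocyte genes. The part of transcripts or cells of other tissues in these clusters was not tested. Doublets were not removed from these clusters, since the caller used did not work here.

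**Figure D3:**
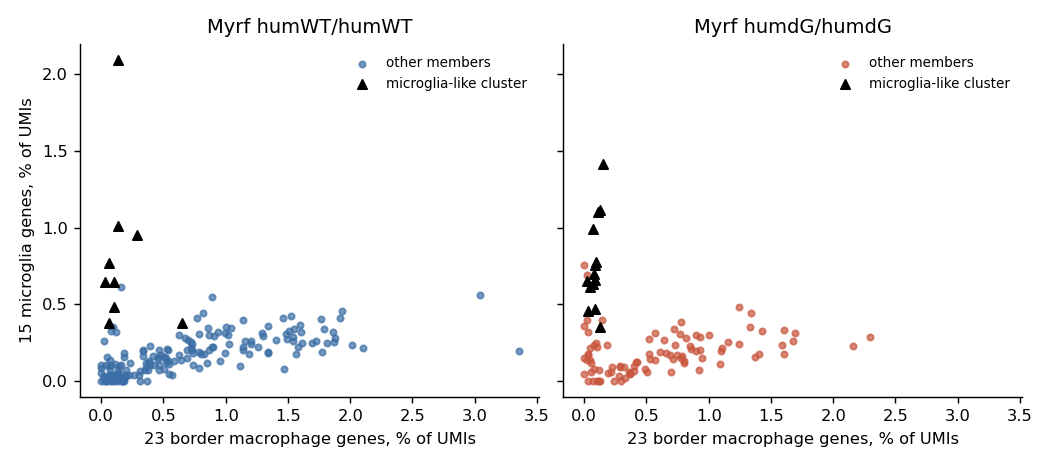
Percent of each macrophage's UMIs from 23 border macrophage genes (x axis) and from 15 microglia genes, *Sparc* left out (y axis), with 1 point per barcode and triangles for the microglia-like cluster. The 9 triangles of the first library and the 14 of the second reach microglia shares of 2.09% and 1.42%, and all but 1 have a border share of at most 0.287% (the exception, in the first library, has 0.650% and a microglia share of 0.376%). The barcodes with the highest border shares, 3.35% and 2.30%, have microglia shares of 0.192% and 0.286%. On the y axis the 2 kinds overlap in part, as for a barcode of the first library with a border share of 3.04% and a microglia share of 0.563%.

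Across single macrophages, the border genes took from 0 through a median of 0.520% to 3.35% of UMIs in *Myrf humWT/humWT* and from 0 through 0.398% to 2.30% in *Myrf humdG/humdG*. The 15 microglia genes without *Sparc* took from 0 through 0.175% to 2.09% and from 0 through 0.195% to 1.42%. The ranges of the 2 libraries overlapped almost fully for both lists. Thinned to 1000 UMIs, *P2ry12* was seen in 8.43% and 18.7% of macrophages and in 0 red blood cells of either library, while *F13a1* was seen in 44.9% and 36.4% of macrophages, beside 0.657% and 0.279% of red blood cells.

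Macrophages were a larger share of the *Myrf humWT/humWT* library. They made up 1.05% (interval 0.899 to 1.21) of its kept barcodes and 0.559% (interval 0.459 to 0.676) of those of *Myrf humdG/humdG*. The intervals did not overlap, but they leave out the spread between embryos and dissections, for which there is no measure. The order held when red blood cells were left out (1.07% and 0.565%). A kept barcode had a median of 3785 and 2574 UMIs, so the gate was applied at unequal depths. Among kept barcodes of 10000 to 50000 UMIs, 87 of 3862 (2.25%, interval 1.81 to 2.77) and 44 of 3400 (1.29%, interval 0.942 to 1.73) were macrophages.

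For the comparison between genotypes, ratios are *Myrf humdG/humdG* over *Myrf humWT/humWT* on summed CPM. Of 11395 genes with at least 20 UMIs in macrophages, 1.9% were at least 2-fold higher and 11.4% at least 2-fold lower in *Myrf humdG/humdG*. Without the 4 deep barcodes, it was 2.89% and 5.55% of 10616 genes. The median log2 ratio of all these genes was −0.10, or −0.03 without the 4 barcodes. The lists of genes below are described by counts and medians beside this background, and nothing in them was tested.

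**Figure D4:**
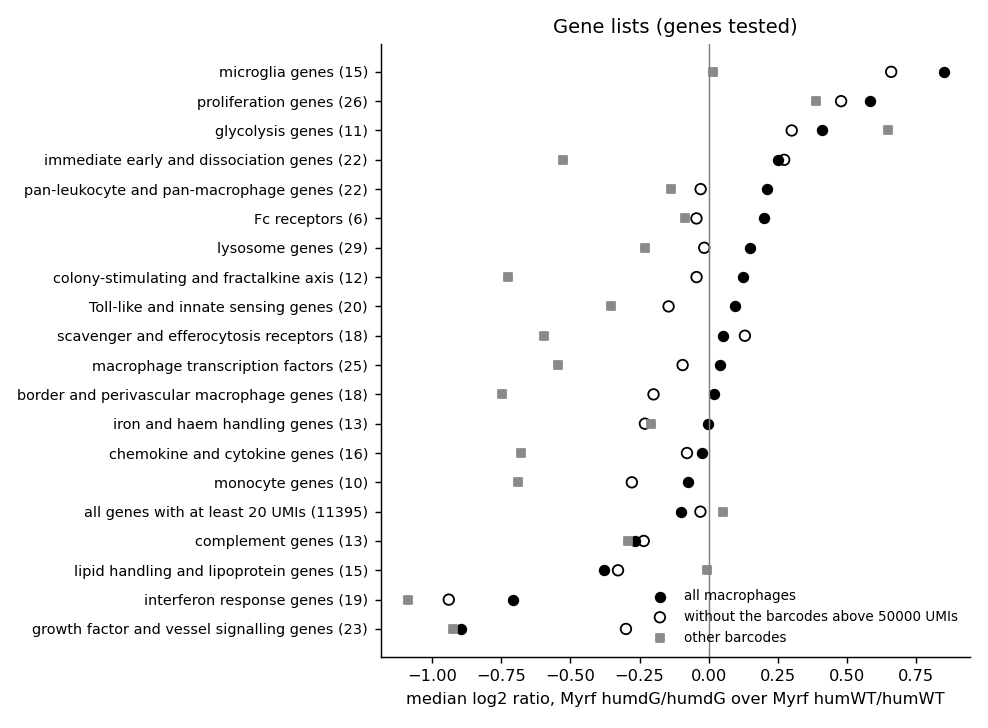
Median log2 ratio of *Myrf humdG/humdG* over *Myrf humWT/humWT* for each gene list, with the number of genes in parentheses. Black points are all macrophages, open circles the macrophages without the 4 barcodes above 50000 UMIs and grey squares all other barcodes; of the lists plotted, which leave out those of other leukocytes and other tissues, microglia genes lie highest at 0.85 (0.66 without the 4), interferon response genes at −0.71 (−0.94) and all genes at −0.10 (−0.03).

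Microglia genes were higher in the *Myrf humdG/humdG* macrophages. Of 15 such genes, 14 had a ratio above 1, 5 were at least 2-fold higher and 1 was at least 2-fold lower, with a median log2 ratio of 0.85. In the other barcodes the same genes had a median of 0.01. Without the 4 deep barcodes the median was 0.66, with 4 genes at least 2-fold higher and 0 lower. The summed level of the microglia genes other than *Sparc* was 2041 and 2869 CPM.

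*P2ry12* stood at 120.1 and 276 CPM (log2 ratio 1.20, interval 0.98 to 1.42). *Trem2*, the lipid-sensing receptor that signals through TYROBP, is counted with the pan-leukocyte genes below and stood at 168 and 337 CPM (1.00, interval 0.81 to 1.20). *Siglech*, a sialic acid-binding lectin gene, was at 18.9 and 59.6 CPM, from 52 and 75 UMIs in 19 and 18 barcodes, a log2 ratio of 1.65 that turned to −0.16 over the 9 UMIs left when each macrophage was thinned to 1000 UMIs. *Olfml3* and the purinergic receptor gene *P2ry13* had log2 ratios of 1.23 and 0.90, the latter 0.32 among macrophages of 10000 to 50000 UMIs. The exception was *Sparc*, a matrix protein gene that microglia and fibroblasts both express. It stood at 860.2 and 372 CPM, a log2 ratio of −1.21, which turned to 0.30 when the 4 deep barcodes were left out.

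The microglia-like cluster, with 5.06% and 13.1% of the macrophages, was shaped by and named from microglia genes, so that leaving it out lowers their ratios by construction. *Trem2*, counted with the pan-leukocyte genes, was also higher in it, at 1026 beside 173 CPM. Left out after the values were seen, the 23 barcodes of the cluster took the log2 ratio of *Olfml3* from 1.23 to 0.25, that of *P2ry12* from 1.20 to 0.50 and that of *Trem2* from 1.00 to 0.58. That of *Siglech* was 1.57, from the 47 UMIs that remained. The median of the list was then 0.43 over 13 genes. At 9 and 14 barcodes the intervals of the cluster's share overlapped.

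Border macrophage genes had a median ratio near 1. Of 18 genes, 12 had a ratio above 1, 0 were at least 2-fold higher and 1 at least 2-fold lower, with a median of 0.02 in the macrophages, −0.20 without the deep barcodes and −0.75 in the other barcodes. The members differed among themselves. *Lyve1*, the hyaluronan receptor gene, was at 394 and 596 CPM (log2 ratio 0.60, interval 0.46 to 0.73, and 0.35 without the deep barcodes), found in 82 and 40 barcodes. *Folr2*, the folate receptor gene, had a log2 ratio of 0.92. Both ratios turned negative, at −0.21 and −0.18, when macrophages above 20000 UMIs were left out. *F13a1* (1615 and 1466 CPM), *Stab1* (864 and 869 CPM), *Dab2* (996 and 885 CPM) and *Ms4a7* (499 and 503 CPM) lay within 0.17 of 0 on the log2 scale. These ratios moved under the alternatives. The lowest were −0.62 for *F13a1* (thinned to 1000 UMIs), −0.25 for *Stab1* (without barcodes rich in transcripts of other tissues), −0.46 for *Dab2* (each macrophage weighted the same) and −0.27 for *Ms4a7* (without macrophages above 20000 UMIs). The highest were 0.0005, 0.14, −0.03 and 0.20, in the same order.

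*Cd163*, the receptor that takes up haemoglobin bound to haptoglobin, was the member that was at least 2-fold lower. It had 491 and 103 UMIs, or 178 and 81.8 CPM, in 66 and 22 barcodes, a log2 ratio of −1.12 (interval −1.44 to −0.81) that was −1.37 without the deep barcodes. Thinned to 1000 UMIs, it was seen in 12.4% (interval 7.91 to 18.1) and 6.54% (interval 2.67 to 13.02) of macrophages, and these intervals overlapped. Its ratio in the other barcodes was of the same sign, at −1.38.

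Interferon response genes were lower in the *Myrf humdG/humdG* macrophages. Of 19 genes, 18 had a ratio below 1 and 4 were at least 2-fold lower, with a median log2 ratio of −0.71. Without the deep barcodes 8 were at least 2-fold lower and the median was −0.94, and without macrophages above 20000 UMIs the median was −0.73. The same list had a median of −1.09 in all other barcodes, so the difference was not particular to macrophages, although 11 of the 19 genes stood at least 8-fold above other barcodes in both libraries.

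*Isg15*, a ubiquitin-like protein gene that interferon induces, had 761 and 153 UMIs in 89 and 30 barcodes, or 276 and 121 CPM, a log2 ratio of −1.18 (interval −1.44 to −0.93). Thinned to 1000 UMIs it was seen in 22.5% (interval 16.6 to 29.3) and 5.61% (interval 2.09 to 11.8) of macrophages, beside 1.53% and 0.836% of red blood cells. *Ifit1* and *Ifit3*, whose proteins bind viral RNA, had log2 ratios of −1.68 and −1.49, and *Rsad2*, which encodes viperin, of −1.42. Outside the list, the interferon-inducible genes *Ifi206*, *Ifi47*, *Ifi213* and *Ifi211* had ratios of −1.46, −1.28, −1.04 and −0.99 and were among the 10 lowest of the 395 enriched genes, as was *Slfn1* at −1.02. *Slfn1* and *Ifit1* were also among the leading genes of the border macrophage-like cluster, of 69 and 1 barcodes. Without macrophages above 20000 UMIs, the ratios of *Rsad2*, *Slfn1* and *Ifi211* were −0.091, −0.10 and −0.40. The more abundant members differed less. The membrane protein genes *Bst2* and *Ifitm3* each had a ratio of −0.54, and *Ifi27l2a*, at 1089 and 1147 CPM, one of 0.07. Thinned to 1000 UMIs, *Isg15*, *Ifit1* and *Ifitm3* had ratios of −2.15, −3.35 and −1.17, over 62, 8 and 186 UMIs.

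Per macrophage, the interferon response genes took from 0 through a median of 0.277% to 2.51% of UMIs in *Myrf humWT/humWT* and from 0 through 0.132% to 2.77% in *Myrf humdG/humdG*. The ranges overlapped fully. At matched depth, 10000 to 50000 UMIs, the medians were 0.484% over 87 and 0.288% over 44 macrophages.

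**Figure D5:**
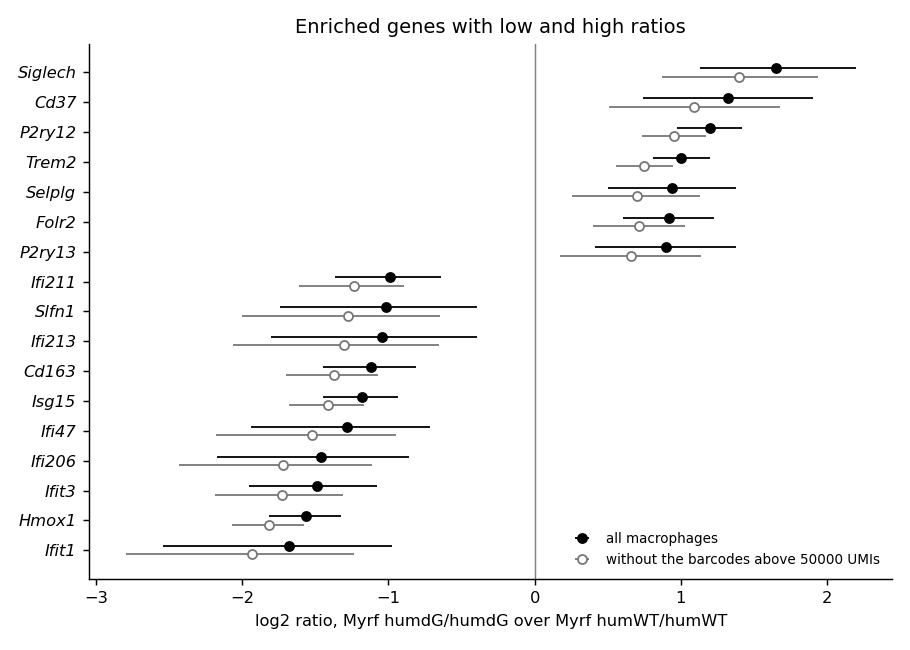
Log2 ratio of *Myrf humdG/humdG* over *Myrf humWT/humWT* with exact 95% counting intervals for 7 of the 10 genes with the highest ratios and the 10 with the lowest among 395 genes enriched in macrophages (*Ccl5*, with 0 UMIs in *Myrf humWT/humWT*, is among the highest genes not shown). Black points are all macrophages and open points those without the 4 barcodes above 50000 UMIs; *P2ry12* lies at 1.20 and 0.95, *Ifit1* at −1.68 and −1.94.

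Among genes for iron and haem handling, 0 of 13 were at least 2-fold higher and 3 at least 2-fold lower. *Hmox1*, the haem-degrading oxygenase gene, had 1042 and 161 UMIs in 93 and 51 barcodes, or 378 and 128 CPM, a log2 ratio of −1.56 (interval −1.81 to −1.32). One *Myrf humWT/humWT* barcode held 35.3% of its UMIs, and without the top barcode of each library the ratio was −1.03. Without macrophages above 20000 UMIs it was 0.09. The border macrophage-like cluster, of 69 and 1 barcodes, held 962 *Hmox1* UMIs. The other genes at least 2-fold lower were *Cd163* and *Spic*, a haem-induced factor gene of iron-recycling macrophages, with 28 and 0 UMIs. The ferritin genes *Fth1*, at 4723 and 4916 CPM, and *Ftl1*, at 5978 and 6303 CPM, and the iron exporter gene *Slc40a1*, at 212 and 167 CPM, varied less.

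Chemokine and cytokine genes had a median log2 ratio of −0.03 over 16 genes, with 3 at least 2-fold higher and 2 at least 2-fold lower. Without the deep barcodes it was 1 and 2 of 14 genes (median −0.079), and without macrophages above 20000 UMIs the median was −0.68. *Ccl12*, a ligand of CCR2, was the most abundant at 459 and 307 CPM (log2 ratio −0.58, interval −0.75 to −0.41, and −1.43 without macrophages above 20000 UMIs). *Ccl2*, a further ligand of CCR2, was at 111.1 and 112.0 CPM, a log2 ratio of 0.014 that was −0.69 when each macrophage was thinned to 1000 UMIs. The 3 genes at least 2-fold higher, named after their values were seen, were *Tnf*, *Ccl3* and *Il1b*, all markers of activation and all of few UMIs. *Tnf* was at 2.54 and 14.3 CPM from 7 and 18 UMIs (log2 ratio 2.43, interval 1.16 to 3.99) and *Ccl3* at 9.07 and 18.3 CPM from 25 and 23 UMIs (1.01, interval 0.13 to 1.89). *Il1b* was at 4.36 and 8.74 CPM from 12 and 11 UMIs, with an interval of the log2 ratio, −0.32 to 2.31, that included 0. The lower ones were *Ccl8*, with 25 and 0 UMIs, and *Csf1*, with 22 and 4. *Ccl5*, which is not in the list, had 0 and 330 UMIs, all of them in 1 barcode of *Myrf humdG/humdG*. Hence its ratio, the highest of the enriched genes, is that of 1 barcode. *Cd83*, an activation marker gene, had a log2 ratio of 0.90, and *Cd37* and *Selplg*, genes of leukocyte surface proteins, of 1.32 and 0.94. The ratio of *Cd37* was 0.71 without macrophages above 20000 UMIs, that of *Cd83* 0.34 with each macrophage weighted the same, and that of *Selplg* turned to −0.054 on thinning to 1000 UMIs.

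Growth factor and vessel signalling genes had 1 of 23 at least 2-fold higher and 11 at least 2-fold lower, with a median log2 ratio of −0.90, equal in sign to the −0.93 of the other barcodes. Without the deep barcodes it was 1 and 4 of 20 genes and the median was −0.30. Of the list, 2 genes stood 8-fold above other barcodes. *Wnt7b*, the hyaloid regression signal, had 2 and 1 UMIs in all macrophages and was 0.261-fold and 0.246-fold the level of other barcodes. *Igf1* was at 237 and 127 CPM (log2 ratio −0.90 with and without the deep barcodes), *Nrp1*, a co-receptor of vascular growth factor, at 264 and 203 CPM (−0.37, and −1.17 on thinning to 1000 UMIs), and *Tgfb1* at 103 and 123 CPM. The receptor genes *Tgfbr2* and *Axl* had ratios of −0.68 and −1.79, which were −0.43 and −0.95 without the deep barcodes, with *Axl* at −0.41 without macrophages above 20000 UMIs.

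The core machinery of phagocytes differed little. Of 29 lysosome genes 1 was at least 2-fold higher and 0 lower, with a median log2 ratio of 0.15, or −0.02 without the deep barcodes. The protease genes *Ctsb* and *Ctss* had ratios of 0.05 and 0.48 (*Ctss* −0.012 on thinning to 1000 UMIs), the cystatin gene *Cst3* 0.47, and the legumain gene *Lgmn* 0.30. Of 22 pan-leukocyte genes, 2 were at least 2-fold higher, *Trem2* among them, and 0 were lower, at medians of 0.21 and −0.03. Of 6 Fc receptor genes none passed 2-fold, with a median of 0.20 (−0.04 without the deep barcodes, −0.14 with each macrophage weighted the same). Of 20 innate sensing genes 0 and 1 did (median 0.10, or −0.15 without the deep barcodes), with *Ly86* and *Pycard*, an inflammasome adaptor gene, at 0.55 and 0.51. The lowest value under the alternatives was 0.25 for *Ly86*, on thinning to 1000 UMIs. For *Pycard* it was also 0.25, without barcodes rich in transcripts of other tissues. The 13 complement genes outside C1q had 0 higher and 2 lower (median −0.27), the 18 scavenger and efferocytosis receptor genes 2 and 2 (0.05), and the 15 lipid genes 1 and 0 (−0.38). Without the deep barcodes these lists had 0 and 2 (−0.24), 0 and 1 (0.13), and 0 and 2 (−0.33). The 25 macrophage transcription factor genes had 2 and 4 (0.04), and the 12 genes of the colony-stimulating and fractalkine axis 0 and 2 (0.12), or 1 and 2 (−0.095) and 0 and 1 (−0.044) without the deep barcodes. The 10 monocyte genes had 0 and 3 (−0.07), the 3 MHC class II genes 0 and 0 (0.33). The monocyte median was −0.28 without the deep barcodes and −1.02 without macrophages above 20000 UMIs. The 3 lower monocyte genes, *Fn1*, *Vcan* and *S100a6*, are also expressed by fibroblasts.

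Proliferation genes were somewhat higher. Of 26 genes, 22 had a ratio above 1 and 3 were at least 2-fold higher, with a median log2 ratio of 0.58, or 0.48 without the deep barcodes and 0.047 without macrophages above 20000 UMIs. In the other barcodes the median was 0.39. *Ube2c* and *Birc5*, both acting at mitosis, had ratios of 1.47 and 0.84, and *Top2a*, the topoisomerase of dividing cells, 0.50. One *Myrf humdG/humdG* barcode held 29.0% of the *Ube2c* UMIs, and both *Ube2c* and *Birc5* turned to −0.14 and −0.34 without macrophages above 20000 UMIs. Thinned to 1000 UMIs, *Mki67* was seen in 12.9% and 14.95% of macrophages and in 10.7% and 10.9% of red blood cells, which also divide in the fetus and so give no background level for it. The proliferating cluster held 7.87% and 7.48% of the macrophages, or 14.6% and 30.8% when the libraries were not centred before clustering.

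The 11 glycolysis genes had ratios above 1, none at least 2-fold, at a median of 0.41, beside 0.65 in the other barcodes. *Ldha* and *Gapdh* had ratios of 0.55 and 0.29 in macrophages and 0.75 and 0.42 elsewhere. Among 22 immediate early genes, which dissociation can induce, 4 were at least 2-fold higher and 1 at least 2-fold lower (median 0.25). This median turned to −0.25 when each macrophage was thinned to 1000 UMIs. *Btg2*, an early growth-arrest gene, had a ratio of 1.21 that was 0.32 without macrophages above 20000 UMIs. *Klf4*, the 1 that was lower, had a ratio of −2.08 that was −0.26 without the deep barcodes. The part of dissociation in the other lists was not tested.

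*Myrf* itself was not a macrophage gene in these libraries. It had 12 and 2 UMIs in all macrophages, 4.36 and 1.59 CPM, beside 17.51 and 7.86 CPM in other barcodes, and its relative *Myrfl* had 0 UMIs in both. The partner gene *Tmem98* had 23 and 4 UMIs, or 8.35 and 3.18 CPM. *Cdk8*, a kinase gene of the mediator complex, was at 1254 and 3726 CPM, a log2 ratio of 1.57 (interval 1.51 to 1.64), and at 2882 and 8116 CPM in other barcodes, where the log2 ratio was 1.49. It was found in all 178 and all 107 macrophages and led the cluster of low depth together with haemoglobin genes. Its uncorrected ratio was nearly the same inside and outside the macrophages. With the profile of other barcodes subtracted, the ratio in macrophages was 2.29.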

How the data were processed

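The authors aligned the reads of 1 pooled library per genotype to the mouse genome (mm10) with Cell Ranger 7.1.0 and worked with Seurat 4.1.1, according to the submitters' processing notes. What was deposited is a matrix of UMI counts by gene and barcode that had not been normalized. The files hold more barcodes than the number of cells the study states, and the study's text gives a lower limit on genes per cell than the one used here. Barcodes with more than 500 genes and less than 15% mitochondrial UMIs were kept, which removed 136 and 178 barcodes by genes and 268 and 258 by mitochondrial share. Macrophages were the kept barcodes with at least 3 of 6 rule genes and at least 0.1% of UMIs from them. The rule, the lists of genes and the limits were chosen with earlier results of these data known.

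Counts were summed over macrophages and over all other kept barcodes of each library and given as CPM. A gene entered the lists from 20 UMIs summed over the libraries, and 0.5 was added to each count in log2 ratios. With 1 library per genotype no count model was fitted, and intervals came from exact distributions in scipy 1.17.1. The scripts were tested on simulated data. Of 563 list genes, 7 had no match by symbol. Of 32285 gene identifiers, 32158 were found in GENCODE M21, whose GRCm38 coordinates are given, and promoters came from RefSeq (GRCm38.p6).

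Macrophages were clustered on the 1000 most variable genes with library centring, 15 components, 15 neighbours and Leiden resolution 0.6 (scanpy 1.11.5). A cluster was named from at least 3 markers of a list. Scrublet marked 1 and 0 of all kept barcodes, so it did not work as a doublet caller, and leaving out the 5% highest scores was tried instead. To compare detection, barcodes were thinned to 1000 UMIs. Red blood cells (457 and 359 barcodes, at least 20% haemoglobin UMIs) gave the level of free transcripts.

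The genes named were the 6 rule genes, the 4 most abundant of each list (2 for lists of other tissues) with any member that differed at least 2-fold with 100 UMIs, the genes at both ends of the ratios (10 each) among those of 100 UMIs and 8-fold enrichment or more, the 20 most enriched genes, leading genes of clusters, *Myrf*, *Cdk8* and sex-linked genes. *P2ry13*, *Wnt7b*, *Ccr2*, *H2-Aa*, *Ccl3*, *Il1b* and other scarce genes were named in addition, after their values were seen. Some genes are not reported here.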

Additional observations from a re-analysis of the deposited data

Results flagged for a closer look

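For 9 of the lists with at least 6 genes compared between genotypes, leaving out the rule genes and the lists of other leukocytes and other tissues, the summed level was higher in the *Myrf humdG/humdG* macrophages and lower in the other barcodes of the same library, both beyond counting error. The difference between the 2 classes of cells was not tested, since each genotype is 1 library. The log2 ratio of the summed UMIs was 0.25 in macrophages and −0.20 elsewhere for pan-leukocyte genes, 0.16 and −0.87 for microglia genes with *Sparc* (without it the sums were 2041 and 2869 CPM in macrophages and 182 and 154 CPM elsewhere), and 0.26 and −0.31 for lysosome genes. It was 0.15 and −0.75 for Fc receptors, 0.25 and −0.20 for innate sensing genes, and 0.14 and −0.46 for the colony-stimulating and fractalkine axis. It was 0.20 and −0.06 for lipid genes, a sum to which *Apoe* gave 34861 of 37719 and 18482 of 19836 UMIs in macrophages, while 11 of the 15 lipid genes were lower in the *Myrf humdG/humdG* macrophages, at a median of −0.38. The ratio of sums was 0.13 and −0.27 for immediate early genes, and 0.08 and −0.14 for macrophage transcription factors. Without the 4 barcodes above 50000 UMIs the ratio in macrophages was 0.28 for microglia genes, 0.21 for immediate early genes, 0.07 for lysosome genes, 0.03 for innate sensing genes and 0.01 for pan-leukocyte genes, and it was negative for Fc receptors (−0.09), transcription factors (−0.08), the colony-stimulating and fractalkine axis (−0.05) and lipid genes (−0.04).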

How the results depend on the processing

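No paired analysis was possible because each genotype is 1 library, and no replicate could be left out. Among the 50 genes whose ratio is given, 35 kept their sign under every alternative that gave a value (17, or 16 for *Klf4*), 10 whose interval excluded 0 turned at least once, and of 849 values 241 moved beyond the counting interval and 14 turned. Leaving out barcodes above 50000 UMIs, those with at least 2% of UMIs from other tissues, the microglia-like cluster or the top barcode of a gene, and keeping 10000 to 50000 UMIs, were chosen after seeing the data. The microglia median ran from 0.33 to 0.95 and the interferon median from −1.15 to −0.58 under every alternative tried. Where a cause of a change is not given by the construction of the alternative, it was not tested.

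With rule genes at 0.3% of UMIs or more, the shares of macrophages were 0.858% and 0.455%, the pan-leukocyte median −0.058, border −0.21, lysosome −0.025, interferon −1.15, all genes −0.024 and *Sparc* 0.49. With at least 4 of 6 rule genes the share in *Myrf humdG/humdG* was 0.439%. Without barcodes above 50000 UMIs the pan-leukocyte median was −0.030, border −0.20, lysosome −0.016, all genes −0.030 and *Sparc* 0.30. Without barcodes rich in transcripts of other tissues these were −0.062, −0.22, −0.040, −0.025 and 0.86. Between 10000 and 50000 UMIs they were −0.059, −0.20, −0.016, −0.021 and 0.47, with shares of 0.511% and 0.230% of all kept barcodes and 2.25% and 1.29% of kept barcodes in that range. Without macrophages above 20000 UMIs the border median was −0.38, all genes −0.026, *Sparc* 0.072, *Lyve1* −0.21, *Folr2* −0.18, *Hmox1* 0.092, *Ube2c* −0.14 and *Birc5* −0.34. With each macrophage weighted the same, pan-leukocyte was −0.036, border −0.30 and all genes −0.027. Thinned to 1000 UMIs, pan-leukocyte was −0.078, border −0.25, interferon −1.06, all genes 0.038, *Siglech* −0.16, *Selplg* −0.054 and *Ctss* −0.012. Without the microglia-like cluster *F13a1* was 0.0005. The median of all genes was −0.062 without the highest Scrublet scores, −0.071 with totals lacking haemoglobin, mitochondrial, ribosomal, histone and *Cdk8* UMIs, 0.00 when set to 0, −0.14 with the profile of other barcodes subtracted, −0.079 at 50 UMIs a gene and −0.12 at 5.

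Cluster shares varied with the settings. Microglia-like clusters held 12.4% and 22.4% at resolution 1.0, and in *Myrf humWT/humWT* 2.25% at resolution 0.3 and 2.25% without library centring. Border-like clusters held 47.2% and 8.41% at resolution 0.3, 29.3% and 33.3% with at least 4 of 6 rule genes, 30.3% in *Myrf humWT/humWT* without centring and 0.0% in *Myrf humdG/humdG* with 2000 variable genes. Proliferating clusters held 14.6% and 30.8% without centring and 21.02% in *Myrf humWT/humWT* with at least 4 of 6 rule genes. At 178 and 107 macrophages, genes of few UMIs could not be compared.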

Other observations

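Transcripts of the sex chromosomes occurred in both forms among the macrophages. *Xist* without any Y-linked transcript was found in 35 and 32 macrophages (*Myrf humWT/humWT*, then *Myrf humdG/humdG*), Y-linked transcripts without *Xist* in 76 and 31, both in 21 and 11, and neither in 46 and 33. Outside the gate, 39 and 31 barcodes carried at least 4 of the 6 leukocyte genes with a median of 0.00815% and 0.00678% of UMIs from the rule genes, and 13 and 19 of these had the neutrophil profile. The single-strand RNA sensor gene *Tlr7* was among the genes most restricted to macrophages in the innate sensing list, at 44.6 and 61.1 CPM, 143-fold and 377-fold above the other barcodes, and the cytokine receptor gene *Il21r* stood at 48.6 and 42.9 CPM, 608-fold and 595-fold above them. Neither was tested between genotypes.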
